A study of Rattus norvegicus with 12 samples.

Results

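Kainate and delta receptors are ionotropic glutamate receptors, and 6 of their genes, Grik1 to Grik5 and Grid1, were followed here among 21245 genes or unnamed targets measured on rat arrays. The genes were taken by family membership and not by their values, and each was found through the transcript accession of its array probe. Where a gene had more than 1 probe, the brightest gave its value. All 6 passed the filter on dim probes, which asks that every array of some group read the probe well above background. Primary hippocampal cultures of embryonic day 18 Wistar rats, grown for 14 to 15 days, were either left untreated or given GYKI-52466 at 50 µM, an AMPA receptor antagonist, together with MK-801 at 10 µM, an NMDA receptor channel blocker. The treatment lasted 9 h or 26 h, and untreated cultures were taken at both times. Each of the 4 groups had 3 independent cultures, numbered 1 to 3 in the labels, and each culture had its own array. In bulk RNA of such mixed cultures a change in the number of cells of a type and a change in the RNA per cell cannot be told apart.

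Kainate receptors are tetramers in which GluK1, GluK2 and GluK3 (Grik1, Grik2, Grik3) can form channels by themselves, while GluK4 and GluK5 (Grik4, Grik5) bind agonist with high affinity but need one of the first group to reach the surface as working channels. In the hippocampus they sit on both sides of the mossy fibre synapse onto CA3 pyramidal cells, in interneurons and at presynaptic terminals, and Neto proteins serve as auxiliary subunits. Delta receptors, to which Grid1 belongs, do not open in response to glutamate: they link neurexins, through secreted cerebellins, to the postsynaptic membrane and act as organizers of synapses.

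The promoter sequences of 3 kainate subunits are shown. Grik4 and Grik5 are the high-affinity subunits, both higher at 9 h of blockade. That comparison is of arrays scanned on different days, and 11.7% of all genes were higher in it. Over both times, Grik5 had an adjusted p of 0.188 (limma). Grik2 is the 1 subunit whose window holds the half-site of the cyclic AMP response element. Each sequence is the 250 bases before the RefSeq start on assembly GRCr8, written 5′ to 3′ along the gene. Capitals mark that half-site (TGACG on either strand) and the E-box (CANNTG, which reads as the same pattern on both strands). The Grik4 stretch is chr8:52102064-52102313 on the minus strand, from a start that lies inside the annotated gene. The Grik5 stretch is chr1:89794910-89795159 and the Grik2 stretch is chr20:54415284-54415533, both on the minus strand.
Grik4: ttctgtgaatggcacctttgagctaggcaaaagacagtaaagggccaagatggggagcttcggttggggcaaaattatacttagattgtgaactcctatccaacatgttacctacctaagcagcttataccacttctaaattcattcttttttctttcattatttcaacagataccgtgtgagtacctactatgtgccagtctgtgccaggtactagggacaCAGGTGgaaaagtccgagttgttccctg
Grik5: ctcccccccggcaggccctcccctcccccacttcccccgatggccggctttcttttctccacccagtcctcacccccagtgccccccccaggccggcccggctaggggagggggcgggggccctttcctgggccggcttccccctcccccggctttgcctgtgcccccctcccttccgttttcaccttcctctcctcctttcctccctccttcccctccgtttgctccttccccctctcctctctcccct
Grik2: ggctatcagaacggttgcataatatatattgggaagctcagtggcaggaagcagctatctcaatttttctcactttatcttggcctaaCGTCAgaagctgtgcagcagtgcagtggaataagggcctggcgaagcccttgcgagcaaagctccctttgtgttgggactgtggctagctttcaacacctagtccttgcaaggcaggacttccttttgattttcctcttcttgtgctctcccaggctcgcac
The Grik4 window held 1 E-box, at position -28 from the start, and the Grik2 window held 1 half-site, at -162. The Grik5 window held neither. Of the 27457 promoters in the table, searched over windows of the same length, 65.2% held an E-box and 19.0% a half-site. None of the 5 windows found for the kainate genes held the full response element (TGACGTCA, in 1.7% of all promoters) or an AP-1 site (TGANTCA, in 6.36%). A GC box (GGGCGG on either strand, in 32.4% of all promoters) occurred 5 times in the Grik3 window, 1 time in that of Grik5 and not in the others. The windows differed widely in base composition, from 43.2% G and C in Grik4 and 49.6% in Grik2 to 70.8% in Grik5 and 81.6% in Grik3, against a median of 52.0% over all promoters. A match of letters is a description of the sequence and not a measured binding site.

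On each array, 77.6% to 86.8% of spots read well above background, and the correlation across genes between arrays within a group was 0.985 to 0.994. Of genes that follow synaptic activity, all 6 of Bdnf, Npas4, Arc, Fos, Nr4a1 and Inhba were lower in blocked cultures over both times. Of all genes, 2.13% were lower in that comparison. These 6 were listed with earlier results of these data known, so their count is a description and not a test of the blockade. Bdnf fell by 2.59 log2 over both times (limma, adjusted p = 3.89e-06). All 7 pan-neuronal markers were measured, together with astrocyte, microglial and oligodendrocyte markers. The arrays lay on 6 slides scanned on 2 days. Untreated 9 h and blocked 26 h arrays were scanned on day 1, and blocked 9 h and untreated 26 h arrays on day 2. The blockade effect at a single time therefore compares arrays of different days, and a difference in effect between the times cannot be told apart from the scan day. Averaging the 9 h and 26 h effects balances the days and the slides, and that average is given first. Blocked and untreated arrays of the same day differ in time as well, so within-day differences hold the time effect too.

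Values are log2 signal minus the 75th percentile of the same array, so that 0 stands for a fairly bright probe and negative values for dimmer ones. The level of a probe says nothing about its rank against the probe of another gene. Over both times, Grik4 was the 1 receptor gene of the 6 that passed the threshold of 0.05 on the adjusted p, and it was higher in blocked cultures. Of all genes tested, 4.41% passed in this comparison, 2.28% higher and 2.13% lower. At 9 h, Grik4 and Grik5 were higher and Grid1 was lower in blocked than in untreated cultures, where 21.0% of all genes passed, 11.7% higher and 9.34% lower. At 26 h only Grid1 passed among the 6 and was now higher, where 16.1% of all genes passed, 6.95% higher and 9.18% lower. Over the 6 genes the median of the average effect was 0.13 log2, beside -0.02 over all genes.

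**Figure D1:**
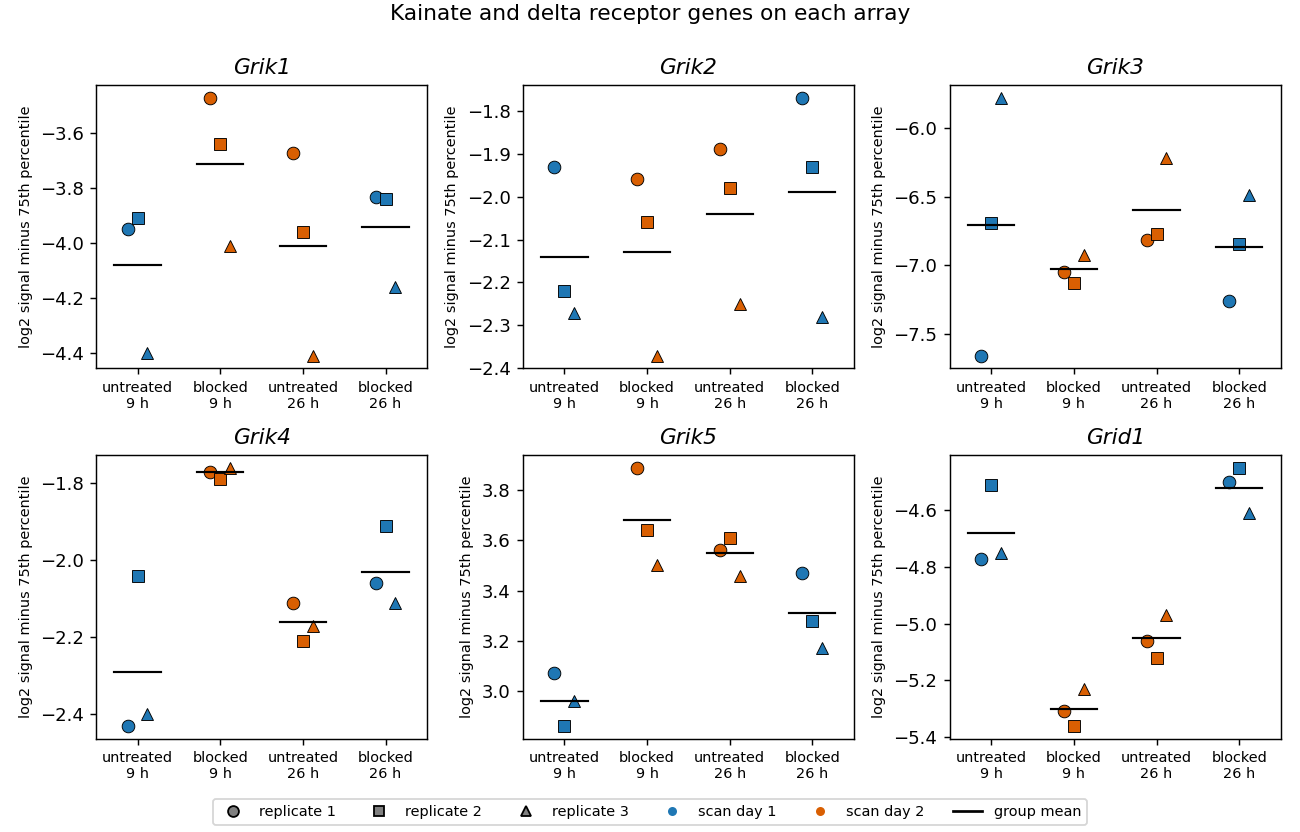
Each panel plots 1 gene, with the log2 signal minus the array's 75th percentile on the vertical axis and the 4 groups along the horizontal axis. Points are single arrays (3 per group), the shape gives the replicate number, the colour the scan day, and the horizontal bar the group mean. In the Grid1 panel all day 1 arrays lie at -4.77 to -4.45, above the day 2 arrays at -5.36 to -4.97. In the Grik1 and Grik2 panels the triangle (replicate 3) is lowest in 4 of 4 groups.

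Grik4 encodes GluK4, a high-affinity subunit known from CA3 pyramidal cells and mossy fibre terminals. Untreated 9 h arrays stood at -2.43, -2.04 and -2.40 log2, and blocked 9 h arrays at -1.77, -1.79 and -1.76. Untreated 26 h arrays stood at -2.11, -2.21 and -2.17, and blocked 26 h arrays at -2.06, -1.91 and -2.11. The groups did not overlap at 9 h, with a gap of 0.256 log2 between the nearest arrays of either side. At 26 h the nearest arrays were 0.003 log2 apart, so that the groups all but touched. Groups of 3 without overlap were seen in 34.7% of genes at 9 h and in 38.1% at 26 h.

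The Grik4 effect was 0.33 ± 0.08 log2 (SE, 1.26-fold) over both times, with a 95% interval of 0.15 to 0.51 and an adjusted p of 0.0471 (limma). At 9 h it was 0.52 ± 0.11 log2 (1.43-fold, limma adjusted p = 0.0104), and at 26 h 0.14 ± 0.11 log2 (limma adjusted p = 0.452). The difference between the times, -0.38 log2, did not pass (limma adjusted p = 0.0994). Within each scan day, the mean of the blocked arrays was higher: by 0.27 log2 on day 1 (blocked 26 h against untreated 9 h) and by 0.39 log2 on day 2 (blocked 9 h against untreated 26 h). On day 1 single arrays of the groups overlapped. These differences hold the time effect too. In order of group means, Grik4 ran from untreated 9 h (-2.29 ± 0.22, SD, n = 3) and untreated 26 h (-2.16 ± 0.05) through blocked 26 h (-2.03 ± 0.11) to blocked 9 h (-1.77 ± 0.01). The first 2 overlapped, and blocked 9 h stood clear of all other groups. The Grik4 probe was spotted 10 times per array, and the spots of an array scattered with an SD of 0.044 to 0.124 log2, which is the scatter within an array and not that between cultures.

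The call for Grik4 over both times lies close to the threshold: it was lost in 5 of 11 other ways of processing (adjusted p of 0.00293 to 0.0755 over the 11) and in 11 of 12 fits that left out 1 array (0.0133 to 0.127, with limma), with a positive effect of 0.30 to 0.39 log2 in all of them. It was also lost in 3 of 3 fits without a replicate number (limma adjusted p of 0.229 to 0.339). The 1 array whose removal kept the call was untreated 9 h replicate 2, the highest of its group. At 9 h the call held in 10 of 10 other ways of processing and in 12 of 12 fits without an array, and it was lost in 3 of 3 fits without a replicate number, which leave 8 arrays (adjusted p of 0.100 to 0.132).

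Some markers of excitatory neurons moved with Grik4. Of 6 measured, 3 were higher over both times, where 4.41% of all genes passed and 2.28% were higher. These were Slc17a7 (0.52 log2), the vesicular glutamate transporter of cortical and hippocampal excitatory cells, and the transcription factors Neurod2 (1.23) and Neurod6 (0.56). The other 3 did not pass: Camk2a stood at 0.33 log2, Prox1 at 0.07 and Slc17a6, the other vesicular glutamate transporter of the list, at -0.34 (limma adjusted p = 0.0886). The mean level of the list ran from -1.46 to -1.18 in untreated 9 h arrays, from -0.91 to -0.88 in untreated 26 h, from -0.87 to -0.81 in blocked 26 h and from -0.60 to -0.50 in blocked 9 h, the same order of groups as for Grik4. Among pan-neuronal markers, 0 of 7 passed in either direction over both times (limma), with 3 at an unadjusted p under 0.05 and a median of 0.14 log2. Of 13 interneuron markers, 1 was higher and 1 lower over both times. At 9 h, 3 of the 6 excitatory markers were higher too, with a median of 0.69 log2. Of the 7 pan-neuronal markers, 2 were higher at 9 h, with a median of 0.33 log2. That comparison is across scan days, and 11.7% of all genes were higher in it. The part of these markers in the results for Grik4 and Grik5 was not tested.

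Grik5 encodes GluK5, the more widespread high-affinity subunit, which pairs with GluK2 in many neurons. Untreated 9 h arrays read 3.07, 2.86 and 2.96 log2, and blocked 9 h arrays 3.89, 3.64 and 3.5. Untreated 26 h arrays read 3.56, 3.61 and 3.46, and blocked 26 h arrays 3.47, 3.28 and 3.17. The 9 h groups were separated by 0.435 log2, while the 26 h groups overlapped, with blocked arrays at the lower end. Groups without overlap at 9 h were seen in 34.7% of genes. The low group is untreated 9 h, which stood below each of the other 3 groups.

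At 9 h Grik5 was higher by 0.71 ± 0.12 log2 (1.64-fold, limma adjusted p = 0.00367). At 26 h the difference was -0.24 log2 and did not pass (limma adjusted p = 0.220). Over both times it came to 0.24 ± 0.09 log2, which missed the threshold (limma adjusted p = 0.188). It passed with the replicate number as a block (adjusted p = 0.0403), where 12.8% of all genes passed. Of the 11 other ways of processing, the block among them, it passed in 2. It passed in 0 of 12 fits without 1 array and in 0 of 3 without a replicate number. The change in effect between the times was -0.95 ± 0.17 log2 (limma adjusted p = 0.00313), in a comparison that is also that of the scan days and where 28.6% of all genes passed (12.6% with a higher effect at 26 h and 15.9% with a lower one). Within day 1 the blocked arrays were 0.35 log2 above the untreated ones, and within day 2 0.13 log2. In order, the group means were 2.96 ± 0.11 in untreated 9 h, 3.31 ± 0.15 in blocked 26 h, 3.55 ± 0.08 in untreated 26 h and 3.68 ± 0.19 in blocked 9 h (SD, n = 3 each), and all neighbours but the first pair overlapped. Untreated cultures alone differed by 0.58 log2 between 26 h and 9 h (limma adjusted p = 0.00917), where 20.0% of all genes passed. These arrays also come from different days. For Grik5 the effect of time averaged over treatment, which is balanced over days, was 0.11 ± 0.09 log2 (limma adjusted p = 0.506).

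**Figure D2:**
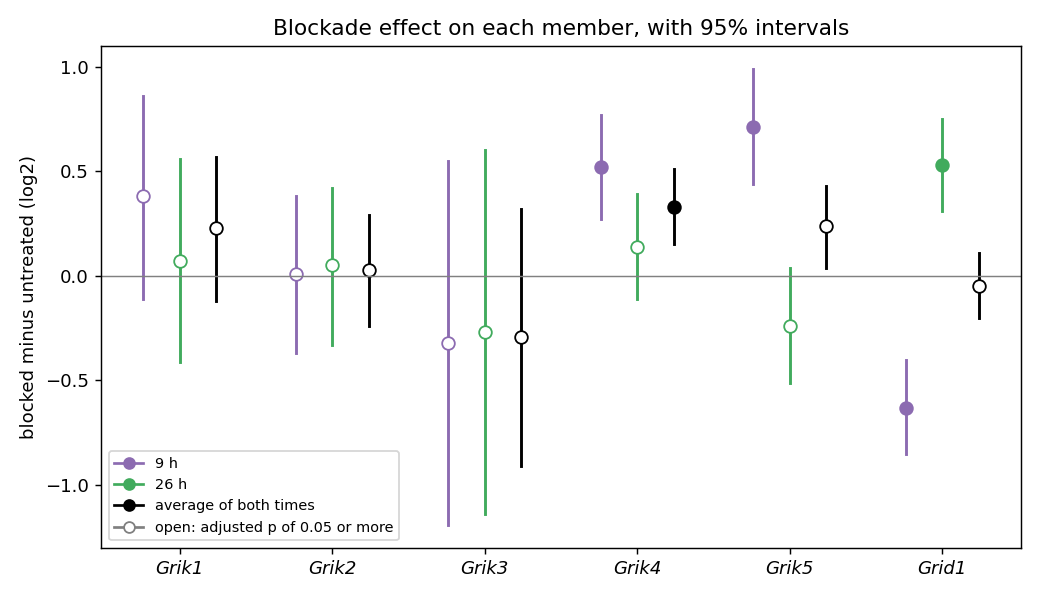
Blockade effect on each of the 6 receptor genes (horizontal axis), as blocked minus untreated in log2 units (vertical axis), at 9 h, at 26 h and averaged over both. Points are limma estimates from 12 arrays, lines are 95% intervals, and filled points have an adjusted p under 0.05. Grik4 is above 0 in the average (0.15 to 0.51), Grid1 lies below 0 at 9 h and above 0 at 26 h, and the intervals of Grik3 are the widest.

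The channel-forming subunits showed no change past the threshold over both times, at 9 h or at 26 h. Grik1 encodes GluK1, known from hippocampal interneurons. Its untreated 9 h arrays stood at -3.95, -3.91 and -4.40 log2, its blocked 9 h arrays at -3.47, -3.64 and -4.01, its untreated 26 h arrays at -3.67, -3.96 and -4.41 and its blocked 26 h arrays at -3.83, -3.84 and -4.16. The groups overlapped at both times, and the third culture was the lowest in each group. The effect was 0.23 ± 0.15 log2 over both times (limma adjusted p = 0.566) and 0.38 ± 0.22 log2 at 9 h (limma adjusted p = 0.265). With the replicate number as a block, the 9 h effect passed (adjusted p = 0.0137), where 35.5% of all genes passed, and the average did not (adjusted p = 0.0559, against 12.8% of all genes). Group means ran from untreated 9 h (-4.08 ± 0.27) through untreated 26 h (-4.01 ± 0.38) and blocked 26 h (-3.94 ± 0.19) to blocked 9 h (-3.71 ± 0.28), all within their spread. A second Grik1 probe, assigned to another transcript of the gene, gave 0.01 log2 at 9 h and 0.19 log2 at 26 h, so the 9 h difference of the brighter probe was not seen on it.

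Grik2 encodes GluK2, the main channel-forming subunit of the mossy fibre synapse. Its arrays read -1.93, -2.22 and -2.27 log2 in untreated 9 h, -1.96, -2.06 and -2.37 in blocked 9 h, -1.89, -1.98 and -2.25 in untreated 26 h and -1.77, -1.93 and -2.28 in blocked 26 h. Every group covered much the same range. The effect over both times was 0.03 log2 with a 95% interval of -0.24 to 0.29 (limma adjusted p = 0.955), and with the replicate block the interval was -0.10 to 0.15. The group means, from -2.14 ± 0.19 in untreated 9 h and -2.13 ± 0.21 in blocked 9 h to -2.04 ± 0.18 in untreated 26 h and -1.99 ± 0.26 in blocked 26 h, lay within 1 SD of each other.

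Grik3 encodes GluK3, a subunit that needs high glutamate concentrations to open. Its probe was dim, with signals of 21.6 to 59.2 and above background on 10 of 12 arrays, 2 of 3 in untreated 9 h and in blocked 26 h. Untreated 9 h arrays spread from -7.66 through -6.69 to -5.78 log2, wider than any other group of the 6 genes. Blocked 9 h arrays lay at -7.05, -7.13 and -6.93, untreated 26 h arrays at -6.82, -6.77 and -6.22 and blocked 26 h arrays at -7.26, -6.85 and -6.49, and groups overlapped at both times. The average effect was -0.29 ± 0.28 log2 (limma adjusted p = 0.712), with a 95% interval of -0.91 to 0.32. Its 9 h effect of -0.32 log2 turned to 0.14 without untreated 9 h replicate 3. In order, the means were -7.03 ± 0.10 in blocked 9 h, -6.87 ± 0.38 in blocked 26 h, -6.71 ± 0.94 in untreated 9 h and -6.60 ± 0.33 in untreated 26 h, and no neighbours differed beyond their spread.

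In these 3 subunits the culture number carried more of the spread than the treatment. Replicate number took 66.2% of the variance over the 12 arrays in Grik1, 81.4% in Grik2 and 54.7% in Grik3, beside a median of 19.4% over all genes. Compared with cultures 1 and 2, culture 3 was lower by 0.46 log2 in Grik1 and by 0.32 log2 in Grik2, and higher by 0.67 log2 in Grik3, the same way in 4 of 4 groups for each gene. The third cultures also had more signal of meningeal, fibroblast and vascular markers (2.18 log2 as the median over the list) and less of interneuron markers (-0.40 log2), while pan-neuronal markers differed by -0.16 log2 and the median of all genes by 0.11 log2. The part of these markers in the subunit levels was not tested. In the high-affinity subunits replicate number took 6.35% (Grik4) and 10.0% (Grik5).

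**Figure D3:**
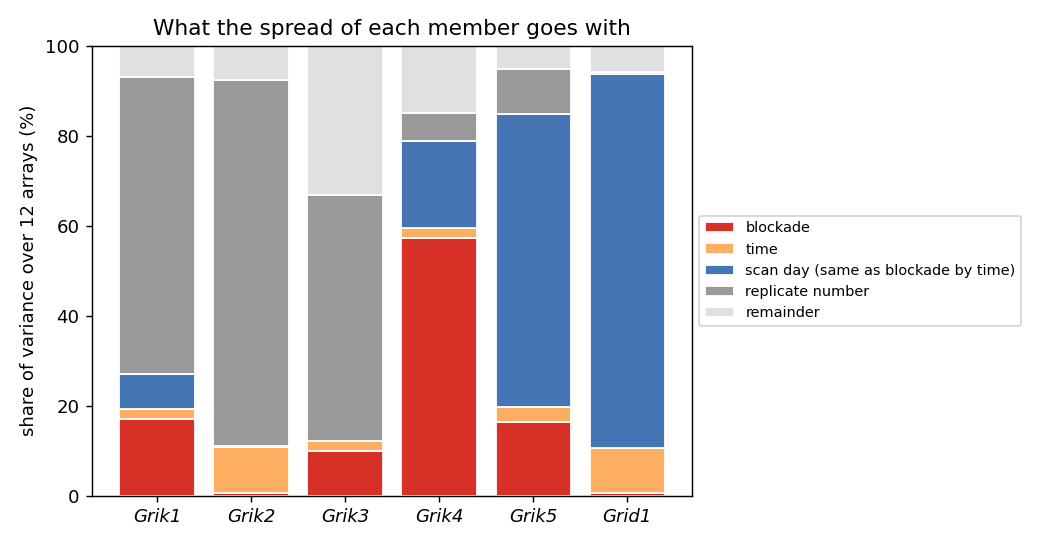
Share of the variance over 12 arrays (vertical axis, percent) that goes with blockade, time, scan day, replicate number and the remainder, for each receptor gene (horizontal axis). Blockade takes most in Grik4 (57.4%), scan day takes most in Grik5 (65.1%) and Grid1 (83.1%), and replicate number takes most in Grik1, Grik2 and Grik3. Scan day is the same split of the arrays as the interaction of blockade and time.

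Grid1 encodes GluD1, the delta receptor of the forebrain, which binds cerebellins and organizes both excitatory and inhibitory synapses. Untreated 9 h arrays stood at -4.77, -4.51 and -4.75 log2, and blocked 9 h arrays at -5.31, -5.36 and -5.23. Untreated 26 h arrays stood at -5.06, -5.12 and -4.97, and blocked 26 h arrays at -4.50, -4.45 and -4.61. The groups did not overlap at either time, with gaps of 0.465 and 0.357 log2. Such a lack of overlap was seen in 34.7% of genes at 9 h and in 38.1% at 26 h. Blocked Grid1 arrays were the lower ones at 9 h and the higher ones at 26 h.

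At 9 h Grid1 fell by 0.63 log2 under blockade (SE 0.10, 1.54-fold, limma adjusted p = 0.00260), and at 26 h it was higher by 0.53 ± 0.10 log2 (1.45-fold, limma adjusted p = 0.00740). The average was -0.05 ± 0.07 log2, with an interval of -0.20 to 0.11 (limma adjusted p = 0.828). The change between the times was 1.16 ± 0.14 log2 (limma adjusted p = 0.000447). The order of group means was blocked 9 h (-5.30 ± 0.07), untreated 26 h (-5.05 ± 0.08), untreated 9 h (-4.68 ± 0.14) and blocked 26 h (-4.52 ± 0.08), so that both day 2 groups lay below both day 1 groups. The scan day, or the interaction that coincides with it, took 83.1% of the variance, a share that 2.82% of all genes matched or passed. Within day 1 the blocked arrays were 0.16 log2 above the untreated ones, and within day 2 they were 0.25 log2 below (a difference of -0.25). Untreated cultures were lower at 26 h than at 9 h by 0.38 log2 (a difference of -0.38, limma adjusted p = 0.0241), and these also come from different days. The effect of time averaged over treatment, which is balanced over days, was 0.20 ± 0.07 log2 and missed the threshold (limma adjusted p = 0.0903), and 0 of the 6 genes passed in that comparison (1 at an unadjusted p under 0.05), where 12.6% of all genes did.

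Grid1 was dim, with signals of 70.3 to 211. With normexp background correction the effects shrank to -0.35 log2 at 9 h (adjusted p = 0.0629) and 0.20 log2 at 26 h (adjusted p = 0.265, limma), and both calls were lost. The 26 h call was also lost in 3 of 3 fits without a replicate number (adjusted p of 0.0641 to 0.224). Without the cultures of replicate number 2, the calls at 9 h for Grik4, Grik5 and Grid1 were all lost, in a limma fit of 8 arrays that called 0 of all genes at 9 h (4010 at an unadjusted p under 0.05).

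The proteins that bind or modify these receptors were followed through a list of 34 genes, of which 30 were measured. Over both times 1 was higher and 1 lower, where 4.41% of all genes passed. The median was 0.06 log2 over the list and -0.02 over all genes. Klhl24, a KLHL-family protein that binds kainate receptor subunits, stood at -2.05, -1.73 and -2.07 log2 in untreated 9 h and at -1.42, -1.44 and -1.52 in blocked 9 h. At 26 h it stood at -1.66, -1.71 and -1.54 without and at -0.93, -1.12 and -1.27 with the blockers. The groups did not overlap at either time, as in 34.7% of genes at 9 h and 38.1% at 26 h. The effect was 0.49 log2 at 9 h and 0.53 log2 at 26 h, and 0.51 ± 0.09 log2 over both (1.42-fold, limma adjusted p = 0.00903), and it passed without any 1 of the 12 arrays but in 0 of 3 limma fits without a replicate number (adjusted p of 0.0735 to 0.218). Within day 1 the blocked arrays of Klhl24 were higher by 0.84 log2 and within day 2 by 0.18 log2. Klhl24 also rose by 0.33 log2 with time (limma adjusted p = 0.0313), and the within-day differences hold that effect too.

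C1ql2 encodes a secreted C1q-like protein of mossy fibre terminals, known to recruit kainate receptors to that synapse. Untreated 9 h arrays stood at -0.75, -0.52 and -0.18 log2, blocked 9 h arrays at -0.98, -1.09 and -0.81, untreated 26 h arrays at -1.55, -1.14 and -1.02 and blocked 26 h arrays at -2.22, -2.0 and -1.82. Blocked arrays were the lower ones at both times, without overlap (seen in 34.7% of genes at 9 h and 38.1% at 26 h). C1ql2 fell by 0.63 log2 over both times (SE 0.13, 1.54-fold, limma adjusted p = 0.0233), and it also fell by 0.90 log2 with time (limma adjusted p = 0.00231). Because blocked 26 h is compared with untreated 9 h on day 1, and blocked 9 h with untreated 26 h on day 2, the within-day differences hold the time effect too: they were -1.53 and 0.28 log2. Its call was lost in 7 of 12 fits without 1 array, with adjusted p of 0.0130 to 0.0683 (limma), and in 2 of 3 fits without a replicate number (0.0482 to 0.528).

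At 9 h 5 of the 30 partners were higher and 1 was lower, with a median of 0.13 log2, beside 21.0% of all genes that passed in either direction at that time. Grm5 (0.88 log2), a metabotropic receptor, and Ctnnb1 (0.83 log2), which encodes beta-catenin, rose most, while Adarb1, the RNA editing enzyme that acts on transcripts of GluK2, fell by 0.60 log2. At 26 h 2 were higher and 2 lower, with a median of -0.11 log2, beside 16.1% of all genes. Cbln1, a cerebellin that ties delta receptors to neurexins, rose by 0.98 log2 (limma adjusted p = 0.00782). Ctnnb1 fell by 0.69 log2 at 26 h. All these values at a single time compare different scan days. Averaged over both times, Ctnnb1 stood at 0.07 log2, Grm5 at 0.26, Adarb1 at -0.18 and Cbln1 at 0.44, and none of them passed in the main fit. With the replicate number as a block, 5 further partners passed over both times, where 12.8% of all genes passed. These were Neto1 (0.33 log2, adjusted p = 0.0356), the auxiliary subunit of kainate receptors, Cbln1 (0.44 log2, adjusted p = 0.0305), C1ql1 (-0.56 log2, adjusted p = 0.0128), C1ql3 (-0.35 log2, adjusted p = 0.00833) and Grip1 (-0.26 log2, adjusted p = 0.0460), a scaffold protein. The 3 C1q-like genes measured were thus all below 0 in the average.

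**Figure D4:**
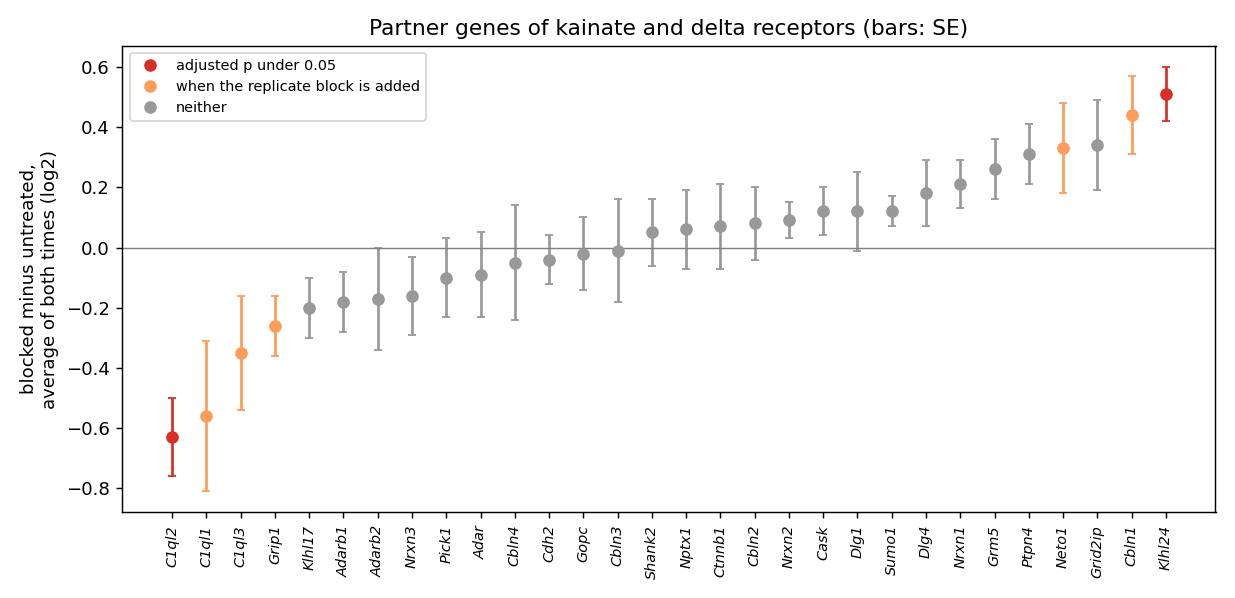
Blocked minus untreated in log2 units, averaged over both times (vertical axis), for the 30 measured partners of kainate and delta receptors (horizontal axis, in order of size), with bars of 1 SE from limma over 12 arrays. C1ql2 (-0.63) and Klhl24 (0.51) pass the threshold. The 5 genes in orange do not pass in that fit and pass when the replicate number is added as a block.

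AMPA and NMDA receptor subunits were counted in the same fits. Of all genes, 4.41% passed over both times, 21.0% at 9 h and 16.1% at 26 h. With the replicate number as a block, 12.8% of all genes passed over both times. Of 4 AMPA receptor subunits, 1 was higher over both times, Gria1 (0.64 ± 0.13 log2, 1.55-fold, limma adjusted p = 0.0221), whose call was lost in 6 of 12 fits without 1 array (adjusted p of 0.0154 to 0.0655 over the 12). It was also lost without replicate number 1, 2 or 3 (limma adjusted p of 0.108, 0.491 and 0.0583). With the replicate number as a block, Gria2 passed over both times as well (0.20 log2, adjusted p = 0.0436 against 0.201 without it). At 9 h 2 of the 4 were higher, Gria1 by 0.74 and Gria2 by 0.60 log2, and at 26 h 0 passed (limma, with 3 at an unadjusted p under 0.05). Of 7 NMDA receptor subunits, 0 passed over both times (limma, with 3 at an unadjusted p under 0.05), 2 were higher at 9 h (Grin1 by 1.05 and Grin2a by 0.74 log2) and 2 were lower at 26 h (Grin1, a change of -1.02, and Grin2c, a change of -0.58 log2). With the block, 2 of the 7 passed over both times, Grin2a (0.31 log2, adjusted p = 0.0390) and Grin2c (-0.41 log2, adjusted p = 0.0230). The effect on Grin1 changed between the times by -2.08 log2, the same direction as for Grik5, and this too cannot be told apart from the scan day.

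Over the 12 arrays the genes most like each receptor gene, among 12340 genes with a symbol, were ranked by Pearson's r. For Grik4 they were Slc17a7 (r = 0.959), Map6d1 (0.934) and Ccdc32 (0.918). For Grik5 they were Sez6l2 (0.988), Mapkap1 (0.982) and Usp48 (0.978), and for Grid1 Mx2 (0.979), Lyrm2 (0.970) and Ssbp1 (0.969). For Grik1 they were Pnck (0.934), Tpd52 (0.932) and Rhebl1 (0.919), for Grik2 Acyp1 (0.954), Grb7 (0.939) and Ttc8 (0.922), and for Grik3 Chek2 (0.940), Or2t48b (0.930) and Zap70 (0.925). Among the receptor genes themselves, Grik1 and Grik2 ran together (r = 0.64), both ran against Grik3 (-0.70 and -0.63), and Grik5 ran against Grid1 (-0.74). All these points share slides, scan days and culture numbers, and the correlations are descriptions over 12 arrays.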

How the data were processed

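RNA of each of the 12 samples was labelled with Cy3 and hybridised to its own Agilent array. Per the file headers, Feature Extraction 10.5.1.1 wrote the deposited processed signal, an intensity after background subtraction, with no scaling between arrays. The authors also deposited log2 values, which matched log2 of that signal minus a constant per array (slope of 1), with medians of 7.57 to 7.75 and the rule for the constants not stated. Here log2 of the processed signal minus the array's 75th percentile was used, after removal of control spots and of 3751 spot values with outlier flags, and spots of a probe were averaged. Filtering kept 24029 of 30367 probes. Of all probes, 18004 matched a gene by transcript accession, and 12354 of the 21245 tested targets had a symbol. The files' genome build is older than GRCr8, so only sequences of the RefSeq table carry coordinates.

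All 12 arrays entered 1 limma 3.58.1 fit (R 4.3.3, lmFit and eBayes) with a mean per group. Tests were two-sided, with Benjamini-Hochberg adjustment over all genes and a threshold of 0.05, and the code was tested on simulated data. The number of arrays limits the precision: the median SE was 0.170 log2 at 1 time and 0.120 for the average. The labels number the cultures of every group 1 to 3. Deviations of same-numbered arrays of a time correlated at 0.177 to 0.657 over 6 pairs, so the numbers were taken to pair the samples. Over all same-numbered arrays, across the times too, the range was -0.04 to 0.683. The main fit has no such pairing. The fit with the number as a block is given where it changes a call of the 6 receptor genes, or of a list gene over both times. Alternatives covered scaling, background, filter, probe choice, blocks, array weights and arrays left out.

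The receptor genes and the lists were chosen with earlier results of these data known. All 6 receptor genes are named whatever their values. Of the lists of partners and of AMPA and NMDA receptor subunits, genes past the threshold over both times are named, with the largest changes at 9 h or 26 h as examples. Some genes of the lists are not reported here and are left out of the counts. Genes named with the block, and the marker genes, were picked after their values were seen.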

Additional observations from a re-analysis of the deposited data

Results flagged for a closer look

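The blockade effect on Grik5 differed between the times by -0.95 log2 (26 h effect minus 9 h effect, limma interaction, adjusted p = 0.00313): 3 of 3 blocked 9 h arrays lay above all untreated 9 h arrays, while the 26 h groups overlapped. The effect on Grid1 differed by 1.16 log2 in the same test (adjusted p = 0.000447), with all 3 blocked arrays below the untreated ones at 9 h and all 3 above them at 26 h. Groups of 3 without overlap were seen in 34.7% of genes at 9 h and in 38.1% at 26 h. In the interaction test 28.6% of all genes passed. The contrast is the same split of the arrays as the scan day, so a change of the effect with time and a shift between days cannot be told apart here.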

How the results depend on the processing

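Each array gives 1 value per gene and a group holds 3, so the number of arrays limits the precision; for the dim probes of Grik3 and Grid1, signal over background does so as well. Of the receptor gene values under other settings, 828 counted as kept, 42 lost the call, 8 gained it and 44 tested values changed sign. The kept values that were tested held their direction and side of the threshold. Within-day values have no test and counted as kept when within the gene's spread of the average, whatever their sign. That of Grik2 was -0.09 log2 on day 2, against 0.03 in the average. The other 2, the within-day values of Grid1, moved by more than the spread. Within-day values hold the time effect too, which was 0.20 log2 for Grid1. The causes of the other changes were not tested. Every sign change was in an effect that had not passed. The slide as a fixed block gives no value for the effect at a single time, since no slide holds both groups.

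Over both times, 1 receptor gene (Grik4) passed, but 0 did with median scaling, normexp background, the deposited log2 values, no filter on dim probes or outlier spots kept, and 2 did with the replicate block (Grik4 and Grik5) or with slide as a random block. Genes called over both times rose from 937 to 2727 with the replicate block, 2978 with slide as a random block, 2275 with slide as a fixed block and 1802 with array weights. At 26 h, where Grid1 passed, 0 receptor genes did with normexp and 2 with array weights. With the replicate block, genes called rose from 4462 to 7538 at 9 h, from 3427 to 6637 at 26 h (7377 with array weights), from 2684 to 5600 for time (6042 with slide as a random and 5188 as a fixed block), from 4250 to 7260 between untreated groups and from 6070 to 9473 for the difference between times (3510 with slide as a random block). For time, 1 receptor gene (Grid1) passed with either slide block against 0 otherwise, and between untreated groups 1 (Grik5) passed in place of 2 with quantile normalization, normexp or the deposited values. The replicate block changed no call of the receptor genes other than those of Grik1 at 9 h and Grik5 over both times. Without the filter on dim probes, 39.5% of the genes called at 9 h were higher, against 55.5%. Normexp moved the median of all genes at 26 h to -0.13 log2.

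Signs turned as follows. For Grik2 the 9 h effect became -0.01 with median scaling and -0.02 with quantile normalization, and its difference between times -0.07 with array weights. For Grik1 the 26 h effect became -0.06 with normexp, and the untreated difference -0.04 with the mean over probes. For Grik3 the time effect became -0.02 and the difference between times -0.24 with normexp, and the untreated difference -0.05 with array weights, which gave -0.01 for Grik4.

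With 1 array or 1 replicate number left out, genes called ranged from 31 to 966 over both times, 0 to 4623 at 9 h, 20 to 4440 at 26 h, 165 to 2548 for time, 14 to 4025 between untreated groups and 3 to 6166 for the difference between times, and each lowest count came without replicate 2. Receptor genes called ranged from 0 to 1 over both times, 0 to 3 at 9 h, 0 to 1 at 26 h, 0 to 1 for time, 0 to 2 between untreated groups and 0 to 3 for the difference. Over the same fits, Grik2 ranged from -0.03 to 0.10 over both times, -0.08 to 0.13 at 9 h, -0.07 to 0.19 at 26 h and -0.08 to 0.18 for the difference. Grik3 ranged from -0.80 to 0.14 at 9 h, -0.10 to 0.37 for time, -0.36 to 0.57 between untreated groups and -0.41 to 0.61 for the difference. Grik1 ranged from -0.12 to 0.25 at 26 h, -0.17 to 0.02 for time and -0.10 to 0.27 between untreated groups.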
